A study of Homo sapiens with 6 samples.

Results

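The siRNAs described here target 9 kinases that carry growth factor and nutrient signals to protein synthesis and survival: PDPK1, AKT1, AKT2, MTOR, RPS6KB1, RPS6KB2, SGK1, SGK2 and SGK3. They were found by their locus identifiers among the library wells of a kinome siRNA screen, and occupied 10 of 939 library wells, which target 925 distinct loci. AKT1 had 2 wells with the same reagent, 1 on plate 1 and 1 on plate 3. MTOR, SGK1 and SGK3 are listed in the file under the older symbols FRAP1, SGK and SGKL. The screen used SUM149PT, an established cell line of triple-negative inflammatory breast cancer. Cells in all 6 samples received 45 nM siRNA with a transfection reagent at 750 cells per well. In the 3 EPA-treated samples, 50 µM eicosapentaenoic acid (EPA), an omega-3 fatty acid, was added after 48 hours and left for 72 hours. The 3 untreated samples had the same siRNAs without EPA. Per the series' design text, the aim was a druggable gene to target together with EPA. The readout was the fluorescence of resazurin, a dye that metabolically active cells reduce, so a lower reading cannot tell fewer cells from less metabolism per cell. No source used here says that the samples of a group were separate cultures, so p-values here measure sample spread alone, some or all of which may be technical. How far each siRNA lowered its target was not analysed here.

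In this pathway, growth factor receptors activate class I PI3-kinases, whose lipid product brings PDPK1 and AKT to the membrane, where PDPK1 phosphorylates the activation loop of AKT. AKT restrains the brake on MTOR, a kinase that works in a pair of complexes. The first drives protein synthesis through the S6 kinases and is held back by AMPK when energy is low, and the second completes the activation of AKT and SGK kinases.

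MTOR was the only kinase of this group whose siRNA was called lower in EPA-treated minus untreated, relative to the other siRNAs of its plate. Whether it differed from the other members was not tested. The MTOR well read 5337 ± 653 units with EPA and 25027 ± 3849 units untreated (SD, n = 3 each). The siRNAs against AKT1, AKT2, SGK2 and SGK3 gave low signals in both groups, those against PDPK1 and RPS6KB1 in untreated cells. After median polish, a correction for plate row and column, those against AKT2, SGK2 and SGK3 were called low in neither group. After division by the plate's library median, in limma's test across all 939 wells at a Benjamini-Hochberg adjusted p under 0.05, EPA-treated minus untreated was lower for 1 of the 10 wells, higher for 2 and past the threshold in neither direction for 7. Of all library wells 15.2% were called lower and 29.0% higher in that comparison. The median difference was 0.30 log2 units over the 10 wells and 0.20 over all wells.

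The OTP3 and median library signals were lower in EPA-treated than in untreated samples, and these values are the scale for what follows. OTP3, the negative control siRNA, read 21951 ± 4049 units with EPA and 49147 ± 1644 untreated (SD over the 3 samples of each sample's median), so 44.7% ± 4.83 (SE) was left. The median library siRNA read 13565 ± 1404 with EPA and 22991 ± 1184 untreated, or 59.0% ± 3.94 left. Blank wells read 3926 ± 36.7 units with EPA and 3787 ± 19.2 untreated. TOX, the positive control siRNA, read 3834 ± 123 units with EPA and 4539 ± 277 untreated. The share left with EPA varied over the plate: in wells of OTP3 and of cells alone, pooled over the 3 plates, it was 90.4% in plate row 1 but 33.9% in row 9. The cause of this variation was not tested. The 10 wells lay in rows 5 to 8, 10 and 11, where 36.4% to 40.0% was left in the pooled control wells. In the control wells of their own plate and row the share ran from 33.6% (SGK wells) to 44.6% (MTOR). None of the 10 was among the 159 library wells of rows 1 and 16 or column 24. Every reading of the 10 wells was above the highest blank well of its plate and sample.

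**Figure D1:**
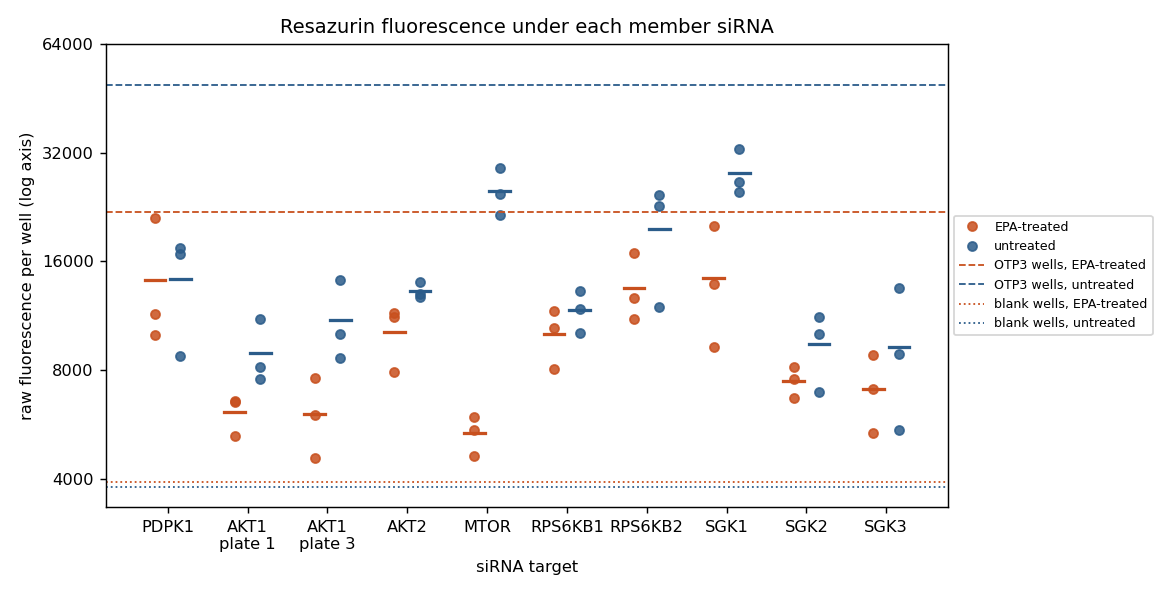
Raw fluorescence (log axis) of each well in 3 EPA-treated and 3 untreated samples, with a bar at each group mean. Dashed lines mark the OTP3 wells and dotted lines the blank wells of each group; the 3 EPA-treated MTOR readings lie far below the 3 untreated ones and close to the blank line.

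PDPK1, the kinase that switches on AKT, S6 kinases and SGKs by phosphorylating their activation loops, stands at the head of the group. Its well, on plate 2, read 21124, 11400 and 10002 units in EPA-treated replicates 4, 5 and 6, and 16729, 8725 and 17472 units in untreated replicates 1, 2 and 3. The readings of the groups overlapped widely, with EPA-treated replicate 4 high and untreated replicate 2 low (exact permutation p = 1). Relative to the plate's library median PDPK1 stood at -0.14 log2 units with EPA (SE 0.181, adjusted p = 0.502 in limma's test) and at -0.84 untreated (adjusted p = 0.00197). The difference was 0.71 (SE 0.256, adjusted p = 0.0466), so PDPK1 rose relative to the plate while its raw reading kept 99.1% ± 31.2 (SE) of the untreated level. This call was lost when any 1 of EPA-treated replicates 4, 5 or 6 or untreated replicates 1 or 2 was left out, with adjusted p between 0.0645 and 0.149 in those 5 fits. It was also lost after subtraction of the blank wells (difference 0.89, adjusted p = 0.0882). The untreated call was lost against the window of 5 by 5 wells (-0.15, adjusted p = 0.383).

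AKT1 is a serine/threonine kinase of survival and growth signalling. Its plate 1 well read 5248, 6510 and 6559 units with EPA, and 11040, 7535 and 8155 units untreated. Its plate 3 well read 4567, 7580 and 6007 units with EPA, and 14233, 10081 and 8638 units untreated. In both wells all 3 EPA-treated readings were below all 3 untreated ones (two-sided exact permutation p = 0.1, which 3 samples against 3 cannot go below). The groups overlapped in both wells once divided by the plate median. The plate 1 well stood at -1.30 log2 units with EPA (SE 0.144, adjusted p = 1.6e-05 in limma's test) and at -1.46 untreated (adjusted p = 1.07e-05). The plate 3 well stood at -0.95 with EPA (SE 0.168, adjusted p = 0.000469) and at -0.90 untreated (adjusted p = 0.00083). AKT1 siRNA gave a low signal in both groups, and EPA-treated minus untreated was 0.15 (95% interval -0.30 to 0.61, adjusted p = 0.562) on plate 1 and -0.05 (95% interval -0.58 to 0.48, adjusted p = 0.885) on plate 3. The EPA-treated means were 1.57 (plate 1) and 1.56 (plate 3) times the plate's blank mean, so these differences rest on readings close to the blank level. After blank subtraction they were -0.33 (adjusted p = 0.556 in limma's test) on plate 1 and -0.84 (adjusted p = 0.262) on plate 3, called in neither direction.

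AKT2, the paralogue best known for insulin signalling, read 7890, 11199 and 11536 units with EPA, and 14037, 13011 and 12740 units untreated. All EPA-treated readings were below all untreated ones, with EPA-treated replicate 4 the lowest (exact permutation p = 0.1). On the plate-relative scale AKT2 stood at -0.58 with EPA (SE 0.152, adjusted p = 0.00571 in limma's test) and at -0.86 untreated (adjusted p = 0.000556). The difference, 0.29 (95% interval -0.19 to 0.77, adjusted p = 0.298), did not pass, but did pass as higher without EPA-treated replicate 4 (0.54, adjusted p = 0.0255). After median polish AKT2 was called in neither group, at 0.10 with EPA (adjusted p = 0.464 in limma's test) and -0.14 untreated (adjusted p = 0.29). On plate 1, AKT1 minus AKT2 was -0.73 ± 0.12 log2 units with EPA and -0.59 ± 0.23 untreated (SD), with AKT1 the lower in 3 of 3 samples of both groups. The plate 3 well of AKT1 stood at -0.95 with EPA and -0.90 untreated, the latter close to AKT2. The AKT1 wells themselves differed by 0.36 with EPA and 0.56 untreated.

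MTOR is the catalytic subunit shared by both complexes named for it. Its well, on plate 1, read 4632, 5921 and 5459 units in EPA-treated replicates 4, 5 and 6, and 29086, 24566 and 21430 units in untreated replicates 1, 2 and 3. No reading overlapped: the highest EPA-treated one lay far below the lowest untreated one, at about the AKT1 level. Raw readings kept 21.3% ± 2.42 (SE) of the untreated level with EPA, and 6.81% ± 1.85 after subtraction of the plate's blank wells (exact permutation p = 0.1). The EPA-treated mean was 1.37 times the plate's blank mean, so the smaller share rests on readings close to the blank level. Relative to the plate MTOR stood at -1.50 log2 units with EPA (SE 0.140, adjusted p = 4.72e-06 in limma's test), the 34th lowest of 939 wells, and at 0.04 untreated (SE 0.140, adjusted p = 0.796), the 495th. The difference was -1.54 (SE 0.197, 95% interval -1.98 to -1.10, adjusted p = 0.000549), the 14th lowest of 939. On this scale the MTOR well was thus among the low wells with EPA and near the library median untreated.

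The size of the MTOR difference varied with the scaling, and its call did not. It was -1.03 against the control wells of its own plate row, -1.15 against OTP3, -1.49 after median polish of plate rows and columns, -1.56 against the surrounding window of 5 by 5 wells and -3.09 after blank subtraction. In those and the other scalings and filters tried, and with each replicate left out, the adjusted p in limma's test lay between 1.08e-05 and 0.0127. With 1 replicate left out the difference ranged from -1.66 to -1.37. The untreated level itself did move: it was 0.82 after median polish, called higher, and -1.04 against OTP3, called lower. The level with EPA was -0.67 after median polish, still called lower (adjusted p = 0.000131), and then the 151st lowest.

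RPS6KB1 and RPS6KB2 encode the S6 kinases, which MTOR activates and which phosphorylate the ribosomal protein S6. RPS6KB1, on plate 3, read 11685, 10438 and 8059 units with EPA, and 11837, 10132 and 13277 units untreated. RPS6KB2, 2 columns away in the same row, read 11089, 12632 and 16884 units with EPA, and 22745, 11955 and 24372 units untreated. Raw readings overlapped for both (exact permutation p = 0.4 and 0.3), and untreated replicate 2 was the lowest untreated sample for both. Relative to the plate RPS6KB1 stood at -0.20 with EPA (SE 0.112, adjusted p = 0.129 in limma's test) and at -0.78 untreated (adjusted p = 0.000148), and the difference of 0.58 (SE 0.159, adjusted p = 0.0149) was called higher. That call was lost after median polish (0.33, adjusted p = 0.208) and when the median difference of all siRNAs was set to 0 (0.32, adjusted p = 0.146). RPS6KB2 stood at 0.22 with EPA (adjusted p = 0.303) and at -0.09 untreated (adjusted p = 0.676), with a difference of 0.32 (95% interval -0.27 to 0.91, adjusted p = 0.352). In EPA-treated minus untreated, neither S6 kinase was called lower in any scaling tried, whereas MTOR was in all of them.

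The SGKs are relatives of AKT, activated by PDPK1 and by an MTOR complex. SGK1, best known for its control of sodium transport, read 9281, 20026 and 13835 units with EPA, and 32836, 26532 and 24872 units untreated. All EPA-treated readings were below all untreated ones (exact permutation p = 0.1), and EPA-treated replicate 4 was the lowest. Relative to the plate SGK1 stood at 0.26 with EPA (adjusted p = 0.209 in limma's test) and at 0.48 untreated (adjusted p = 0.0374), the sole member of the group called higher than the library median in untreated cells. Without untreated replicates 1 or 2, or EPA-treated replicate 6, that call was lost (adjusted p from 0.0553 to 0.161). Without EPA-treated replicate 4, SGK1 with EPA was called higher (0.58, adjusted p = 0.00315). The difference was -0.21 (95% interval -0.78 to 0.35, adjusted p = 0.513).

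SGK2 and SGK3 are its paralogues, and SGK3 carries a PX domain that binds phosphoinositides on endosomes. SGK2 read 7531, 6692 and 8149 units with EPA, and 10081, 6933 and 11233 units untreated. SGK3 read 8790, 5351 and 7103 units with EPA, and 13532, 5463 and 8850 units untreated. For both genes the groups overlapped, with untreated replicate 2 as low as the EPA-treated readings (exact permutation p = 0.3 and 0.4). Against the library median SGK2 stood at -0.62 with EPA (adjusted p = 0.00188 in limma's test) and at -1.12 untreated (adjusted p = 4.5e-05). SGK3 stood at -0.72 with EPA (adjusted p = 0.00709) and at -1.21 untreated (adjusted p = 0.00034). The EPA-treated call of SGK3 was lost without EPA-treated replicate 5 (-0.50, adjusted p = 0.0761) and against the window of 5 by 5 wells (-0.02, adjusted p = 0.933). After median polish the calls of both were lost and the sign with EPA turned: SGK2 stood at 0.07 with EPA (adjusted p = 0.57 in limma's test) and at -0.24 untreated (adjusted p = 0.0698). SGK3 then stood at 0.11 with EPA (adjusted p = 0.573) and at -0.30 untreated (adjusted p = 0.11). The differences, 0.50 for SGK2 (95% interval 0.07 to 0.93, adjusted p = 0.0571) and 0.49 for SGK3 (95% interval -0.13 to 1.11, adjusted p = 0.178), did not pass. SGK2 passed as higher without untreated replicate 3 (0.62, adjusted p = 0.0424), and SGK3 without untreated replicate 1 (0.76, adjusted p = 0.0454).

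Counted over the group without a correction for plate position, more wells were called low than high against the library median. With EPA, limma's test called 6 of the 10 wells lower than the library median and 0 higher, 0 also at an unadjusted p under 0.05, where 37.0% of all wells were called lower and 36.4% higher. The 6 were MTOR, both AKT1 wells, AKT2, SGK2 and SGK3. In untreated cells 7 were called lower and 1 higher, where 35.6% of all wells were called lower and 33.9% higher. The 7 were both AKT1 wells, AKT2, PDPK1, RPS6KB1, SGK2 and SGK3. The median level was -0.60 with EPA and -0.85 untreated over the 10 wells, and 0.03 with EPA and -0.01 untreated over all wells. These counts moved with a correction for plate position: after median polish 3 wells were lower and 1 higher with EPA, where 29.9% of all wells were called lower and 30.2% higher. Untreated, 4 were then lower and 2 higher, where 27.4% of all wells were called lower and 26.0% higher. The median level of the 10 wells after median polish was 0.09 with EPA and -0.27 untreated, beside 0.01 in both groups for all wells. Against OTP3 all 10 wells were called lower in both groups, with medians of -1.34 with EPA and -1.95 untreated, beside -0.68 with EPA and -1.13 untreated for all wells. On that scale 64.7% of all wells were called lower and 13.5% higher with EPA, and 91.8% lower and 0.532% higher untreated.

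**Figure D2:**
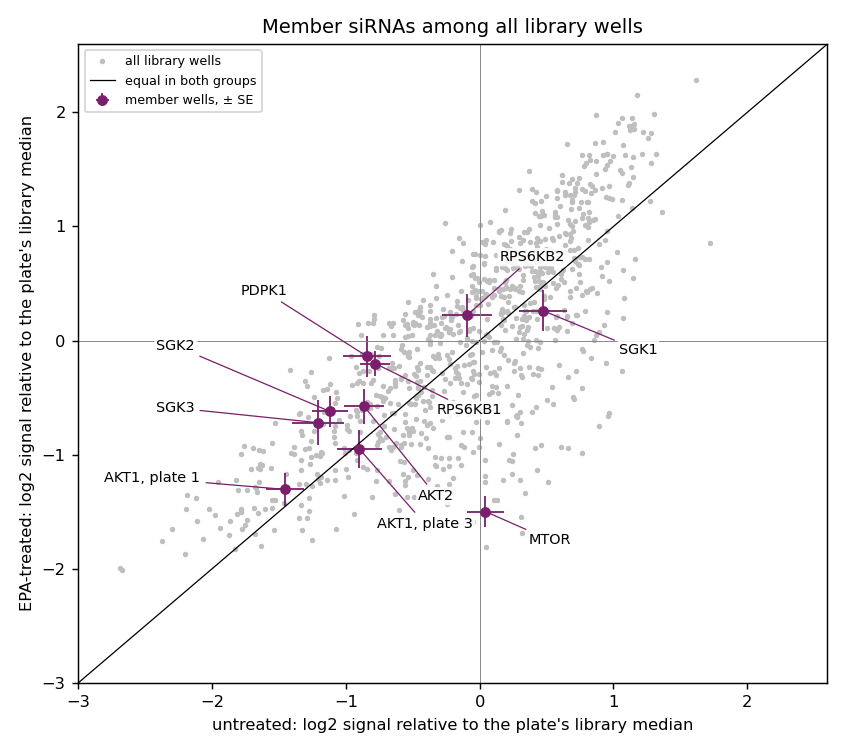
Level of each siRNA with EPA (y axis) against its level in untreated cells (x axis), both as log2 of the signal over the plate's library median, for all 939 library wells (grey) and the 10 named wells (purple, ± SE). MTOR stands at -1.50 with EPA and 0.04 untreated, well below the line of equal levels, while the AKT1, AKT2, SGK2 and SGK3 wells lie low in both groups.

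For the difference itself, relative to the plate, 4 of the 10 wells had no overlap between the 3 EPA-treated and the 3 untreated samples: MTOR, PDPK1, RPS6KB1 and SGK2. This was so for 54.8% of all library wells. After median polish 1 well was lower, MTOR, and 2 were higher, PDPK1 and the plate 1 well of AKT1, where 14.6% of all wells were called lower and 16.5% higher. With the median difference of all siRNAs set to 0, MTOR was lower and no well was higher in limma's test, none also at an unadjusted p under 0.05, where 20.7% of all wells were called lower and 14.0% higher. Against the control wells of the same plate row MTOR was lower and 7 wells were higher, where 7.99% of all wells were called lower and 50.6% higher. That last scaling raised the median difference of all wells to 0.50, and the median of the 10 wells to 1.00. A lower MTOR difference was common to these scalings, whereas the count of higher wells differed between them.

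**Figure D3:**
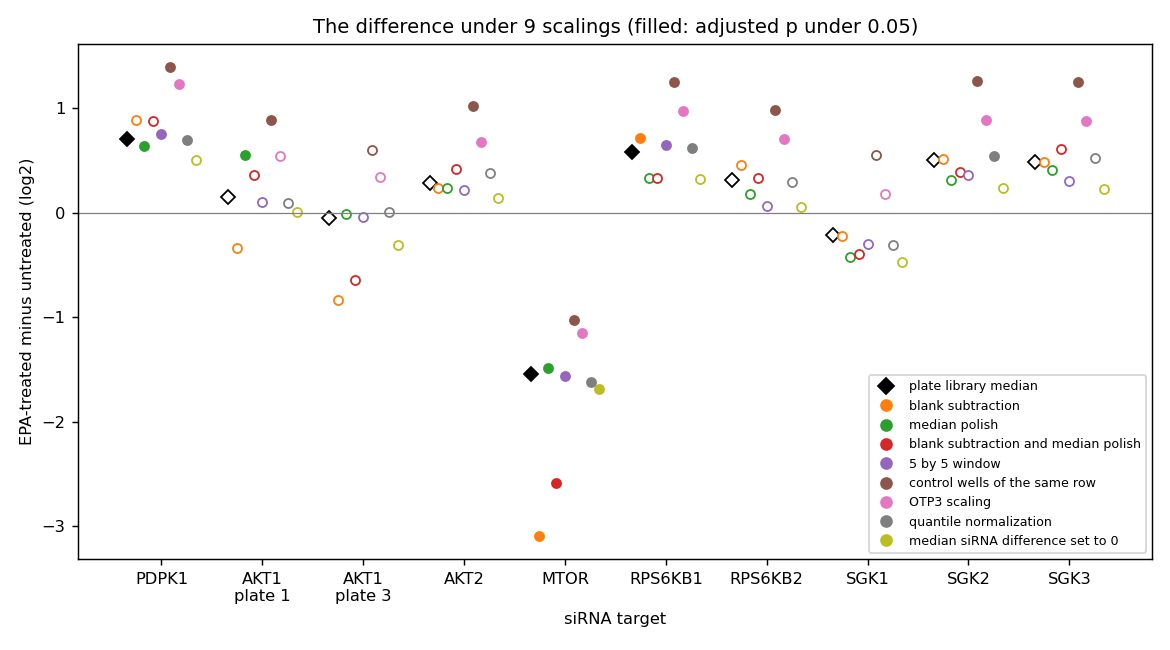
EPA-treated minus untreated difference (log2) of each well under 9 scalings, with filled symbols for an adjusted p under 0.05 in limma's test. MTOR is below 0 and filled under all of them, between -1.03 and -3.09, and no other well is filled below 0.

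The share of the signal left with EPA can be read without the plate median, against the cells nearby. After blank subtraction the MTOR well kept 6.81% ± 1.85 (SE), the library wells in the window around it 54.4% ± 6.40, and the OTP3 and cells-alone wells of its row 39.8% ± 7.68. The MTOR well kept less than both sets of neighbours by more than these errors, and its difference against the window was -1.56 log2 units (adjusted p = 0.000118 in limma's test). PDPK1 kept 96.7% ± 41.8, its window 44.9% ± 14.7 and its row's control wells 32.1% ± 2.83. RPS6KB1 kept 77.2% ± 16.1, its window 42.1% ± 3.61 and its row's control wells 29.5% ± 1.66. AKT2 kept 66.8% ± 12.3 beside a window at 58.2% ± 5.05, and AKT1 43.4% ± 11.9 on plate 1 beside 55.7% ± 7.60 and 29.9% ± 13.5 on plate 3 beside 42.9% ± 5.34. Neither AKT kinase lost a share that stood apart from its window by more than both errors together. RPS6KB2 (60.5% ± 18.4), SGK1 (43.1% ± 13.4), SGK2 (63.0% ± 16.5) and SGK3 (57.7% ± 30.7) had windows between 44.1% and 51.2%, all within 1 SE of the well's own value.

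**Figure D4:**
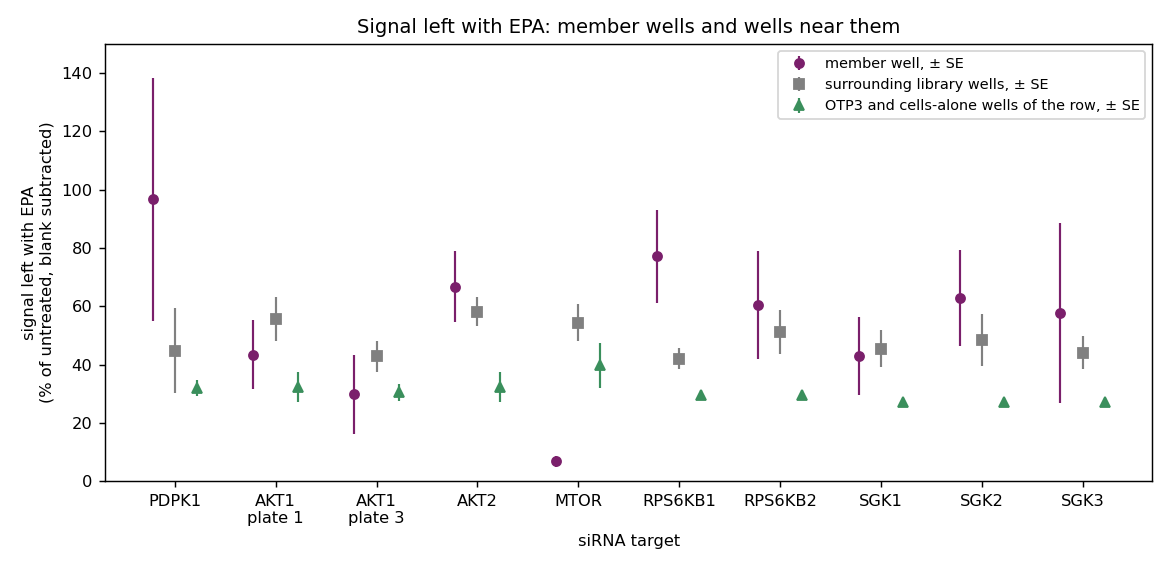
Signal left with EPA (percent of untreated, blank subtracted, ± SE) in each well, in the library wells of the 5 by 5 window around it and in the OTP3 and cells-alone wells of its plate row. MTOR, at 6.81%, lies far below its neighbours, RPS6KB1 lies above its window, and the error bars of PDPK1 and its window overlap.

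As levels, expressed as percent of the OTP3 wells of the plate, the order of the kinases differed between the groups mainly through MTOR. No blank was subtracted for these percentages. Blank wells read 3926 units beside OTP3 at 21951 with EPA, and 3787 beside 49147 untreated. The blank signal is thus a larger part of each percentage with EPA, and the percentages are not compared in size between groups. With EPA, SGK1 stood highest (74.5% ± 32.5, SD, n = 3), followed by RPS6KB2 (69.1% ± 16.5), PDPK1 (62.1% ± 15.1), RPS6KB1 (51.1% ± 8.78) and AKT2 (44.1% ± 17.2). SGK2 (37.9% ± 3.10), SGK3 (35.7% ± 6.41), AKT1 on plate 3 (31.2% ± 9.73), AKT1 on plate 1 (26.1% ± 8.73) and MTOR (22.9% ± 7.95) followed. In untreated cells SGK1 stood highest (62.3% ± 10.1), followed by MTOR (49.2% ± 8.70), RPS6KB2 (42.8% ± 11.9), PDPK1 (27.1% ± 8.66), AKT2 (26.0% ± 1.95) and RPS6KB1 (25.9% ± 1.35). AKT1 on plate 3 (24.4% ± 6.52), SGK2 (20.6% ± 3.29), SGK3 (20.3% ± 8.19) and AKT1 on plate 1 (17.5% ± 3.83) were the lowest. MTOR was last of 10 with EPA and 2nd untreated. In each group all 9 pairs of neighbours in the order overlapped over their 3 samples, so adjacent ranks do not differ beyond their spread.

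Some wells of related kinases on the same plate differed in level in both groups, and no change of such a gap with EPA passed a test. Each gap but that of the AKT1 wells compares 1 well per kinase. For 13 reagents with 2 wells, on different plates, the median gap between wells was 0.64 with EPA and 0.56 untreated. The largest such gap was 1.46 with EPA and 1.34 untreated. SGK1 stood above SGK2 in 3 of 3 samples of both groups, by 0.88 ± 0.65 log2 units with EPA and 1.60 ± 0.41 untreated (SD). SGK1 stood above SGK3 likewise, by 0.98 ± 0.91 with EPA and 1.68 ± 0.53 untreated. SGK2 and SGK3 were close, 0.10 ± 0.29 apart with EPA and 0.09 ± 0.44 untreated. RPS6KB1 minus RPS6KB2 was -0.42 ± 0.59 with EPA, below 0 in 2 of 3 samples, and -0.69 ± 0.39 untreated, below 0 in 3 of 3. The change in these gaps between EPA-treated and untreated samples was -0.71 (SE 0.441) for SGK1 against SGK2, -0.70 (SE 0.609) for SGK1 against SGK3, 0.01 (SE 0.305) for SGK2 against SGK3, 0.26 (SE 0.406) for the S6 kinases and -0.14 (SE 0.148) for AKT1 against AKT2. None of 6 such comparisons, the AKT1 wells among them, passed an exact permutation test (p from 0.2 to 1, adjusted 0.8 to 1). An exact permutation test of 3 samples against 3 cannot go below p = 0.1, so these data do not show that paralogues respond alike.

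The AKT1 reagent was 1 of 13 that occupied 2 wells, and these reagents show the spread between wells of the same siRNA. The AKT1 wells differed by 0.36 log2 units with EPA, by 0.56 untreated and by 0.20 in EPA-treated minus untreated. Over the 13 reagents the median absolute gap was 0.64 with EPA, 0.56 untreated and 0.37 for the difference, and the largest gap in the difference was 0.71. The gap between AKT1 wells was at or below that median in all 3. The difference at the MTOR well, -1.54, was larger in size than any gap of this kind in the difference, whereas that at RPS6KB1 was not.

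**Figure D5:**
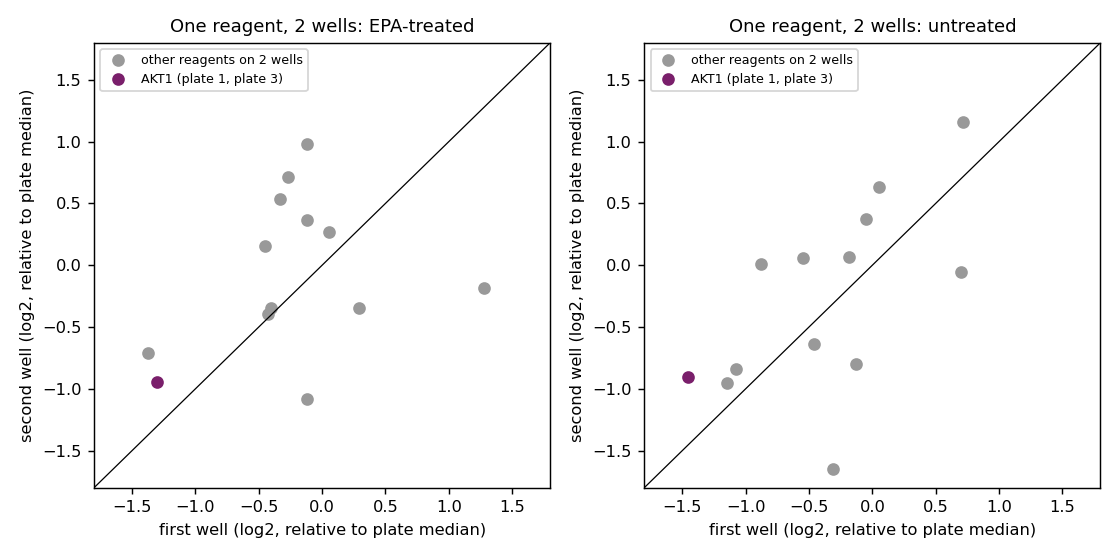
Level of 13 reagents in their 2 wells, as log2 of the signal over the plate's library median, in EPA-treated (left) and untreated (right) cells, each the mean of 3 samples. The AKT1 wells lie low together in both groups, at -1.30 and -0.95 with EPA and -1.46 and -0.90 untreated, while several other reagents lie far from the line of equal levels.

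The wells whose 6 values were most like those of the called kinases were found by Euclidean distance of log2 levels over the 6 samples, as a description with no test. For MTOR they were CDC42BPB (distance 0.449), PSKH1 (0.516) and DYRK1B (0.598), with differences of -1.54, -1.51 and -1.52. As group means, the CDC42BPB well read 5003 units with EPA and 23371 untreated. The PSKH1 well read 5584 with EPA and 26494 untreated, and the DYRK1B well 5716 with EPA and 26501 untreated. All 3 were, like MTOR, near the library median untreated and close to the blank level with EPA. For PDPK1 they included CDK16 (0.581) and PRKCI (0.664). For RPS6KB1 they were CDK16 (0.208), EXOSC10 (0.311) and IRAK3 (0.328).

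Neighbouring parts of the pathway gave mixed counts, on the same scale and test. Over all library wells 15.2% were called lower and 29.0% higher in EPA-treated minus untreated, the shares to set beside these counts. Of 31 genes in 5 lists, 26 were measured. Among class I PI3-kinase subunits, which make the lipid that recruits PDPK1 and AKT, EPA-treated minus untreated was higher for 4 of 6, and below 0 for none, with a median of 0.55. PIK3CG, a catalytic subunit, read 27692 ± 3973 units with EPA and 22104 ± 1569 untreated (SD, n = 3 each), a difference of 1.05 (SE 0.145, adjusted p = 0.000766 in limma's test). PIK3R1, the main regulatory subunit, differed by 0.59 (adjusted p = 0.00476), and PIK3CA, the catalytic subunit often mutated in breast cancer, by 0.47 (adjusted p = 0.0159). Their raw means were lower with EPA: PIK3R1 read 25991 ± 5631 units with EPA and 28268 ± 1835 untreated. PIK3CA read 29451 ± 3747 with EPA and 35343 ± 4061 untreated. All 6 were called higher than the library median with EPA and 2 were untreated, and 2 of the 6 were edge wells. Over all wells 36.4% were called higher with EPA and 33.9% untreated. After median polish 1 of the 6 differences was higher, and with EPA 2 of the 6 levels were called lower and 3 higher, with a median of 0.13. Over all wells 16.5% of differences were then called higher, and with EPA 29.9% of levels were called lower and 30.2% higher.

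AMPK, which restrains MTOR when energy is low, and its activating kinase STK11 gave 1 lower and 1 higher of 5 measured genes, with a median difference of -0.12. Over all wells 15.2% were called lower and 29.0% higher. PRKAA1, a catalytic subunit of AMPK, read 9373 ± 1744 units with EPA and 29962 ± 3533 untreated, a difference of -0.95 (SE 0.143, adjusted p = 0.00108 in limma's test). PRKAG3, a regulatory subunit, differed by 0.66 (adjusted p = 0.0101), and STK11, low in both groups, by 0.21 (adjusted p = 0.277). After median polish 0 of the 5 were called lower in limma's test and 1 was lower at an unadjusted p under 0.05. Over all wells 14.6% were called lower and 16.5% higher after median polish. Among 4 PI3-kinase-related kinases, the family of MTOR by sequence, ATM (-0.53, adjusted p = 0.0075) was lower, SMG1 (0.72, adjusted p = 0.00189) was higher, and ATR (-0.45, adjusted p = 0.0571) passed in neither direction. After median polish 0 of these 4 were called in either direction, 0 also at an unadjusted p under 0.05 in limma's test. The SMG1 well read 4111 ± 205 units with EPA and 4399 ± 468 untreated, near the blank level in both groups, and its mean was not higher with EPA.

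Of 8 RSK, MSK and other S6 kinase relatives, 1 was higher, RPS6KA5, the nuclear kinase MSK1 (0.56, adjusted p = 0.0143 in limma's test). None was lower, at an adjusted or an unadjusted p under 0.05, and the median was 0.25. Over all wells 15.2% were called lower and 29.0% higher. Of 3 kinases that AKT or S6 kinase phosphorylates, GSK3B, a kinase that AKT inhibits, was lower (-0.71, adjusted p = 0.00362) in an edge well, while GSK3A (-0.28, adjusted p = 0.171) and EEF2K (0.10, adjusted p = 0.6) did not pass. Of the 26 genes measured in these lists, PRKAA1 had the lowest difference.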

How the data were processed

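Per the file headers, the deposited values are raw intensity: every well has 1 fluorescence reading in each of 6 samples. The label protocols give resazurin incubation and a plate reader, and no blank subtraction or normalization by the authors is given in the sources used here. Column headings give the group and a running number from 1 to 6, which identifies the group of a column and not which labelled sample it is. Wells lay on 3 plates of 16 rows and 24 columns, 939 of them with library siRNAs.

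Each reading was divided by its plate's median library reading in that sample, and log2 was taken. A mean per group was fitted with limma 3.58.1 in R 4.3.3 (trend and robust moderation) to all 939 wells over 6 samples. EPA-treated minus untreated and each group against 0, the library median, were tested two-sided with Benjamini-Hochberg adjustment over all wells at 0.05. The share of signal left is the EPA-treated over the untreated mean, with a delta-method SE. Single quantities had an exact permutation test over samples. No depth applies to this readout: 3 samples per group and the distance from the blank wells limit the precision.

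All wells against the 9 kinases were named, with the controls, up to 3 members of each pathway list by absolute moderated statistic, and the 3 wells most alike to each kinase called in the difference, of which 1 is not reported here. Symbols were updated through locus identifiers in a RefSeq gene table (GRCh38.p14), and 3 members had older symbols. The kinases, lists and tests were chosen with earlier results of these data known. The fit was tested on simulated data. Alternatives were 8 other scalings, moderation without the trend and robust options, a stricter threshold of 0.01, a plate median without edge wells, a low-signal filter, averaging wells of 1 reagent, and leaving out each replicate. The sequences of the siRNAs were not used here.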

Additional observations from a re-analysis of the deposited data

How the results depend on the processing

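No paired analysis was possible because the table's columns are numbered 1 to 6 through both groups and are not tied to the labels' replicate numbers. MTOR kept its call and direction in the difference under every alternative run, as the report gives, and its raw share left moved to 6.81% with blank subtraction. The cause was not tested for any change listed here.

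For EPA-treated minus untreated, library wells called lower numbered 143, but 59 with OTP3 scaling and 75 against control wells of the same row. Those called higher numbered 272, but 546 with OTP3 scaling, 475 against row controls, 155 with median polish, 126 with blank subtraction and median polish together, 131 with the median difference set to 0 and 135 at an adjusted p under 0.01. Of the 10 wells 2 were higher, but 6 with OTP3 scaling, 7 against row controls, 1 with blank subtraction, and 0 with blank subtraction and polish, with the median set to 0 or at 0.01. Leaving out a replicate gave 1 to 3.

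For untreated wells against the median, 334 were lower and 318 higher, but 862 and 5 with OTP3 scaling, 894 and 2 against row controls, and 216 and 209 with blank subtraction and polish. Of the 10 wells 7 were lower, but 4 with polish and 2 with blank subtraction and polish. There 1 was higher, but 2 with polish and with both steps, 3 with the 5 by 5 window, and 0 with OTP3 scaling, row controls, blank subtraction or the 0.01 threshold. Leaving out a replicate gave 0 to 1. MTOR turned to -1.04 with OTP3 scaling and -0.997 against row controls, SGK1 to -0.70 and -0.72 in the same settings, and RPS6KB2 to 0.65 with the window.

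For EPA-treated wells, 347 were lower and 342 higher, but 608 and 127 with OTP3 scaling and 661 and 59 against row controls. Of the 10 wells 6 were lower, but 10 with OTP3 scaling and 3 with polish, with or without blank subtraction. There 0 were higher, but 1 with polish, with or without blank subtraction, and with a plate median without edge wells, and 3 with the window. Leaving out a replicate gave 0 to 1. With OTP3 scaling RPS6KB2 turned to -0.56 and SGK1 to -0.52. With the window PDPK1 turned to 0.60. With polish AKT2 turned to 0.10, SGK2 to 0.075 and SGK3 to 0.11, and with blank subtraction and polish AKT2 turned to 0.23 and SGK2 to 0.014. Of 541 single-well values over all comparisons and alternatives, 20 that passed in neither setting crossed 0.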
